A study of Mus musculus with 12 samples.

Results

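The genes described here mark the oligodendrocyte lineage, from progenitor to myelin-forming cell, and 9 of them were followed across 6 groups of mouse cell cultures: Olig1, Olig2, Pdgfra, Gpr17, Bcas1, Ugt8a, Cldn11, Cnp and Mbp. All probes that carry these 9 gene symbols were taken, which gave 12 of the 25697 probes on the bead array and 9 of the 16593 genes with a symbol. The cultures were elpNSCs-early and elpNSCs-late, peripheral neural stem cells (pNSCs) from embryonic limb, alpNSCs-early and alpNSCs-late, pNSCs from adult lung, Control-NSC, a control neural stem cell culture, and Fibroblasts, with 2 arrays in each group. The methods give wild-type mice a CD1 background or a mixture of CD1 and C3H, without naming a strain for each culture. Neither the labels nor the methods say what separates early from late. The question behind the arrays was how closely neural stem cells grown from outside the brain resemble control neural stem cells and differ from fibroblasts. The study's methods describe pNSC lines grown from picked cell clusters, made either after a brief exposure to acidic medium or without it. Where the paper describes array profiles of limb and lung lines it names those made with acidic medium, while the labels call the cultures peripheral and do not give their treatment. Neural stem cells were kept in a growth factor medium containing EGF and bFGF, whereas medium with serum is described for the fibroblast-like tissue cells, so cell type and medium cannot be told apart in any comparison with Fibroblasts.

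Oligodendrocytes wrap axons of the central nervous system in myelin. They arise from progenitors that express the transcription factors Olig1 and Olig2 and the receptor Pdgfra, through which the growth factor PDGF-AA keeps progenitors dividing. As progenitors commit, they pass through a stage marked by Gpr17 and Bcas1, and then switch on enzymes and membrane proteins of myelin such as Ugt8a, Cldn11, Cnp and Mbp. Neural stem cells grown with EGF and bFGF are known to express Olig genes without being committed to the lineage. Pdgfra and Cldn11 are also known outside it, Pdgfra in fibroblasts and other mesenchymal cells.

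Promoter sequences are shown for 4 members whose levels differed most in kind between the groups: Olig2 was detected in every neural stem cell group and in no fibroblast array, Pdgfra and Cldn11 were brightest in Fibroblasts, and Ugt8a rose in the late limb group and fell in the late lung group. The reference table held a promoter for 5 of the 9 genes, from RefSeq on build GRCm38.p6, and the fifth, Cnp, is not shown. Each run below is the 250 bases before the annotated start of the gene, 5′ to 3′ on the gene's own strand. Capitals mark matches on either strand to 4 motifs: the E-box CANNTG, to which basic helix-loop-helix factors such as Olig1 and Olig2 bind, the GC box GGGCGG, the CCAAT box CCAAT and the TATA box TATAAA.
Olig2, chr16:91225300-91225549, plus strand: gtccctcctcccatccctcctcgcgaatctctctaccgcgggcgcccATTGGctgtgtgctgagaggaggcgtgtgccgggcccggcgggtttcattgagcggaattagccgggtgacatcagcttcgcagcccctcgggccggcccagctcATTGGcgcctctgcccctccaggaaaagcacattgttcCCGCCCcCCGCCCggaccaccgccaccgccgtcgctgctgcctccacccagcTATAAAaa
Pdgfra, chr5:75152001-75152250, plus strand: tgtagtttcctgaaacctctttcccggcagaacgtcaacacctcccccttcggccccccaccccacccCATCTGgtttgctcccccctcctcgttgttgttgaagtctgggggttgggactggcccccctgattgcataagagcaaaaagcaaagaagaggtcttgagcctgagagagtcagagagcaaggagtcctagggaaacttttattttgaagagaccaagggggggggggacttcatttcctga
Ugt8a, chr3:125938653-125938902, minus strand: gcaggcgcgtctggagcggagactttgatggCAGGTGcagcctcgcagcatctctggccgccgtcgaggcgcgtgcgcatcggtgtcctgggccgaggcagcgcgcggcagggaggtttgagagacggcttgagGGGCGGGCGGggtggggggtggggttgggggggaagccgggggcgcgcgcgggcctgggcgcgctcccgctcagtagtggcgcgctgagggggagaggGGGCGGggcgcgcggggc
Cldn11, chr3:31149670-31149919, plus strand: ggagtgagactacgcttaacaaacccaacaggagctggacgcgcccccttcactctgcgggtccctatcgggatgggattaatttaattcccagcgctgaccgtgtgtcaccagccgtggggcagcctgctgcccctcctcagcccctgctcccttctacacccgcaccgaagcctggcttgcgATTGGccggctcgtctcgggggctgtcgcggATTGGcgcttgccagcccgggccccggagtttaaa

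The Pdgfra window held 1 E-box, 182 bases before the start, and none of the other 3 motifs. The Ugt8a window held 1 E-box, 219 bases before the start, and 3 GC boxes, at 116, 112 and 18 bases, of which the pair at 116 and 112 overlap. Neither the Olig2 nor the Cldn11 window matched CANNTG, and each held 2 CCAAT boxes on the opposite strand, at 203 and 98 bases in Olig2 and at 66 and 35 bases in Cldn11. The Olig2 window also held 2 GC boxes on the opposite strand and TATAAA 8 bases before the start. Among all 32851 promoter windows of this length, 66.2% held CANNTG, 32.7% GGGCGG, 33.8% CCAAT and 12.4% TATAAA, so that all but the last are common in such windows. Olig1 and Olig2 both lie on chromosome 16, with 1 annotated gene between them. Bcas1 lies on chromosome 2 and Cnp on chromosome 11.

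Levels below are log2 intensities after background correction and quantile normalization, so that a difference of 1 is a 2-fold difference, and values given as ± are the SD of 2 arrays. A probe was called detected on an array when the detection p-value in the deposited table, which compares it with negative control beads, was under 0.05. The share of detected probes was 45.92 to 49.95% over the 12 arrays, and the dimmest detected probes lay between 4.63 and 4.80, so that values near or under this floor have only an upper bound. Brightness differs between probes for reasons of sequence, so each probe was compared with itself across groups and never with another gene. Differences were tested in 1 limma model over all 12 arrays with Benjamini-Hochberg adjustment over 10144 genes, and a gene was called at an adjusted p under 0.05. The methods call the replicates biological without saying whether lines or animals differed, and every p-value rests on the spread within these pairs of arrays. The labels fitted the defining markers in part. Sox2 and Fabp7 were detected on all 10 neural stem cell arrays and on no fibroblast array. Slc1a3 was detected on all 12 arrays (13.45 to 13.96 against 9.27 and 9.23 in Fibroblasts). Nes was also detected on all 12, at 6.00 and 6.17 in Fibroblasts and 10.05 and 10.37 in Control-NSC. It measured 8.42 to 8.84 in the limb groups and 10.66 to 11.09 in the lung groups. Vim ran the other way, at 12.83 and 12.95 in Fibroblasts and 10.83 to 12.36 on the neural stem cell arrays. Sox1, Pax6, Prom1 and Msi1 were detected on none of the 12. Col1a1, Col1a2, Col3a1, Dcn and Lum were detected on both fibroblast arrays and on none of the other 10. Thy1, which neurons also express, was detected besides in Control-NSC (9.05 and 9.19) and elpNSCs-early (7.05 and 6.95), and Fbln2 in Control-NSC (6.68 and 6.70) and both limb groups.

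Detection followed the order of the lineage only in part: 5 of the 9 genes were present in every neural stem cell group, among them a marker of committed cells and a myelin enzyme. Olig1, Olig2, Pdgfra, Bcas1 and Cnp were detected on all 10 neural stem cell arrays. Cldn11 was detected on the 8 pNSC arrays and on neither Control-NSC array. Ugt8a was detected on 6 arrays, those of elpNSCs-early, alpNSCs-early and elpNSCs-late. Gpr17 and Mbp were each detected on 3 arrays, both of elpNSCs-late and 1 other. The late limb group was the only group in which all 9 genes were detected on both arrays, against 7 in elpNSCs-early and alpNSCs-early, 6 in alpNSCs-late, 5 in Control-NSC and 3 in Fibroblasts.

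**Figure D1:**
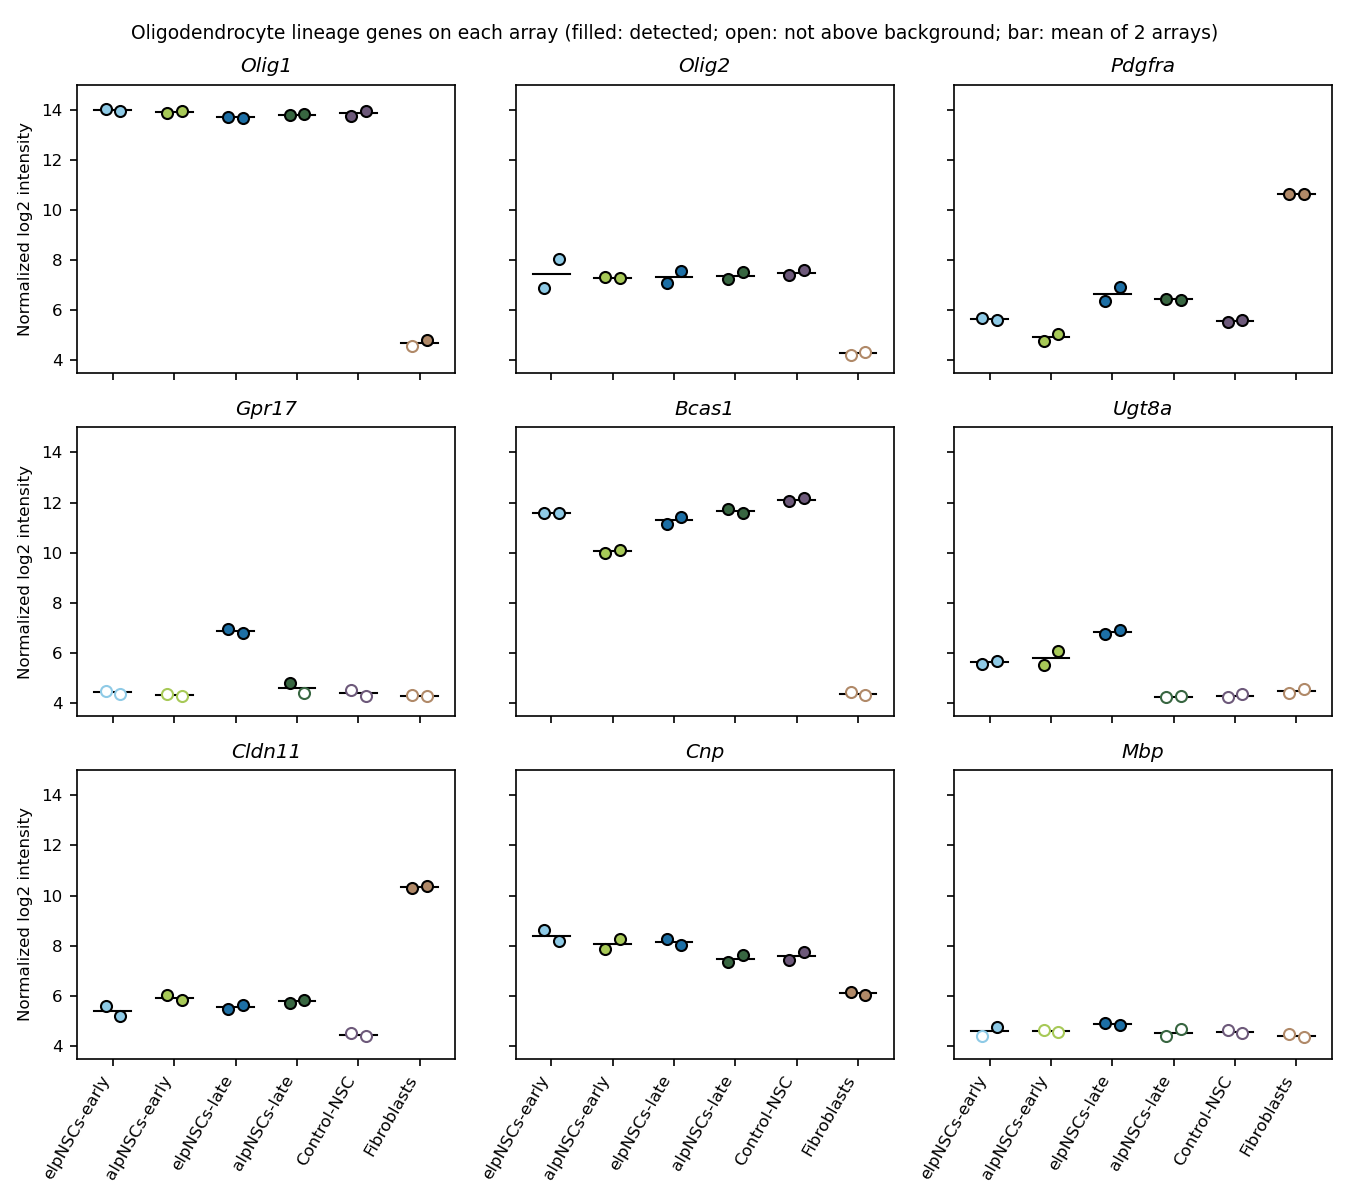
Normalized log2 intensity (vertical axis) of the tested probe of each of the 9 genes on all 12 arrays, by group. Filled points are detected arrays, open points arrays not above background, and bars the mean of 2 arrays. Olig1 and Bcas1 separate the neural stem cell groups from Fibroblasts, Pdgfra and Cldn11 run the other way, and Gpr17 stands out in elpNSCs-late at 6.95 and 6.80.

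Olig1, a basic helix-loop-helix factor of progenitors and of maturing oligodendrocytes, was uniformly bright in the neural stem cell groups. Its levels were 14.02 and 13.94 in elpNSCs-early, 13.87 and 13.93 in alpNSCs-early, 13.72 and 13.67 in elpNSCs-late, 13.79 and 13.81 in alpNSCs-late, 13.74 and 13.96 in Control-NSC, and 4.57 and 4.81 in Fibroblasts. Fibroblasts lay far below all other arrays and the probe was detected on 1 of their 2 arrays, while the neural stem cell groups spanned only 0.29 between the lowest and the highest group mean. Against Fibroblasts the difference was 571-fold in Control-NSC, 627-fold and 513-fold in the early and late limb groups, and 591-fold and 554-fold in the early and late lung groups, with adjusted p from 7.3e-14 to 9.9e-14. With 1 fibroblast array at background, the size depended on the background treatment, and for Control-NSC the log2 difference ran from 7.09 to 10.6 over the 23 alternatives. Against Control-NSC no pNSC group passed the test, and the intervals were narrow: in the mean of the pNSC groups the log2 difference was -0.00 with a 95% interval from -0.21 to 0.21. Quantile normalization sets levels by rank, and raw intensities of 13812.9 and 17726.8 in Control-NSC became 13.74 and 13.96. Whether it narrowed differences between groups for so bright a probe was not tested. In elpNSCs-late both arrays lay below both arrays of elpNSCs-early, by 0.29 on average (SE 0.12, adjusted p = 0.11). Arrays measure RNA in bulk, here and throughout, so fewer cells that express a gene and less RNA per cell cannot be told apart.

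Olig2, the factor that specifies the lineage and whose promoter is shown above, was likewise lowest in Fibroblasts, and its replicates spread more widely. It measured 6.89 and 8.03 in elpNSCs-early, 7.31 and 7.27 in alpNSCs-early, 7.07 and 7.57 in elpNSCs-late, 7.23 and 7.51 in alpNSCs-late, 7.39 and 7.60 in Control-NSC, and 4.23 and 4.34 in Fibroblasts. No fibroblast array was above background, and the 5 neural stem cell groups lay close together, with neighbours in the order of their means overlapping. Because Fibroblasts gave only a bound, Olig2 was at least 7.25-fold higher in Control-NSC, 7.07-fold and 6.44-fold in the early and late limb groups, and 6.29-fold and 6.65-fold in the early and late lung groups, with adjusted p from 6.9e-07 to 1.4e-06. The SD of 0.80 in elpNSCs-early was the widest of any member in any group, and the interval of the pNSC mean against Control-NSC ran from -0.63 to 0.36. Leaving out the elpNSCs-early array at 8.03 put that group 0.61 below Control-NSC, and leaving out the array at 6.89 put elpNSCs-late 0.70 and alpNSCs-early 0.74 below elpNSCs-early, each then past the threshold.

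Pdgfra, the receptor for PDGF-AA, was brightest in Fibroblasts and differed among the neural stem cell groups. It measured 10.62 and 10.65 in Fibroblasts, 6.35 and 6.94 in elpNSCs-late, 6.46 and 6.43 in alpNSCs-late, 5.71 and 5.62 in elpNSCs-early, 5.54 and 5.61 in Control-NSC, and 4.79 and 5.05 in alpNSCs-early. Both late groups lay above both early groups and above Control-NSC without overlap, and the late groups overlapped each other. It was lower than in Fibroblasts by 33.5-fold in Control-NSC, 31.4-fold and 15.9-fold in the early and late limb groups, and 52.7-fold and 18.3-fold in the early and late lung groups, with adjusted p from 1.8e-11 to 4.8e-10. Against Control-NSC it was 2.11-fold higher in elpNSCs-late (adjusted p = 0.00079) and 1.83-fold higher in alpNSCs-late (adjusted p = 0.0039), and in elpNSCs-early the difference of 0.09 had an interval from -0.28 to 0.46. In alpNSCs-early it was 1.57-fold lower (adjusted p = 0.017). That last call was lost with a larger offset, without background correction, and without alpNSCs-early replicate 1 or either Control-NSC array, over which the log2 difference ran from -0.69 to -0.21.

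Pdgfa, which encodes the A chain of PDGF and so the ligand of this receptor, was detected on all arrays and ran in another order. It measured 10.66 and 10.47 in elpNSCs-early, 9.98 and 10.20 in elpNSCs-late, 10.53 and 10.36 in alpNSCs-early, 10.73 and 10.48 in alpNSCs-late, 10.16 and 9.96 in Control-NSC, and 9.62 and 9.43 in Fibroblasts. Fibroblasts were lowest for this ligand. Pdgfa was 1.39-fold lower in elpNSCs-late than in elpNSCs-early (adjusted p = 0.034), and between the lung groups, where the receptor also rose, the difference was 0.16 (adjusted p = 0.70). Pdgfc, another ligand of the receptor, was detected on all arrays and ran the other way, at 6.93 and 6.78 in Fibroblasts and 5.72 to 6.49 on the neural stem cell arrays. It was lower than in Fibroblasts in all 5 groups, by 1.45-fold to 1.88-fold. Of the 5 genes listed here as PDGF ligands or sister receptor, Pdgfb and Pdgfd were detected on no array. Pdgfrb, the sister receptor of pericytes and fibroblasts, was detected only in Fibroblasts, at 6.35 and 6.48.

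Gpr17, a receptor of the short stage in which progenitors commit, was clearly above background in the late limb group. It measured 6.95 and 6.80 in elpNSCs-late, 4.81 and 4.40 in alpNSCs-late, 4.47 and 4.39 in elpNSCs-early, 4.36 and 4.27 in alpNSCs-early, 4.51 and 4.29 in Control-NSC, and 4.33 and 4.29 in Fibroblasts. Outside elpNSCs-late it was above background on a lone array, alpNSCs-late replicate 1. In elpNSCs-late it was at least 4.72-fold higher than in Fibroblasts (adjusted p = 8.1e-09) and at least 4.35-fold higher than in Control-NSC (adjusted p = 1.3e-07). In alpNSCs-late the difference from Fibroblasts was 0.29 (adjusted p = 0.097), which passed the threshold under median scaling and without alpNSCs-late replicate 2.

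Bcas1, which marks newly committed and early myelinating oligodendrocytes, was bright in all neural stem cell groups and at background in Fibroblasts. It measured 12.05 and 12.20 in Control-NSC, 11.74 and 11.60 in alpNSCs-late, 11.59 and 11.58 in elpNSCs-early, 11.15 and 11.44 in elpNSCs-late, 9.99 and 10.11 in alpNSCs-early, and 4.45 and 4.33 in Fibroblasts. No neighbouring groups in this order overlapped, and Control-NSC was above every pNSC array. It was at least 179-fold higher than in Fibroblasts in Control-NSC, 123-fold and 101-fold in the early and late limb groups, and 42.6-fold and 131-fold in the early and late lung groups. Against Control-NSC it was 4.2-fold lower in alpNSCs-early (adjusted p = 2.3e-07) and 1.77-fold lower in elpNSCs-late (adjusted p = 0.00079). The smaller deficits, 1.45-fold in elpNSCs-early (adjusted p = 0.0084) and 1.37-fold in alpNSCs-late (adjusted p = 0.038), did not hold under every alternative. In elpNSCs-early the call was lost with the authors' values and without Control-NSC replicate 2 (difference -0.46). In alpNSCs-late it was lost in 11 of 23 alternatives, among them leaving out either array of alpNSCs-early, alpNSCs-late, Control-NSC or Fibroblasts, over which the difference ran from -0.53 to -0.38.

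Ugt8a, the enzyme that makes the myelin lipid galactosylceramide, switched between detected and not detected among the groups. It measured 6.76 and 6.91 in elpNSCs-late, 5.51 and 6.09 in alpNSCs-early, 5.58 and 5.68 in elpNSCs-early, 4.26 and 4.27 in alpNSCs-late, 4.24 and 4.36 in Control-NSC, and 4.42 and 4.58 in Fibroblasts. The early limb and early lung groups overlapped, the late limb group lay above both, and the late lung group was at background. Against Control-NSC it was at least 4.23-fold higher in elpNSCs-late (adjusted p = 3.6e-07), 1.83-fold in elpNSCs-early (adjusted p = 8.5e-05) and 2.07-fold in alpNSCs-early (adjusted p = 3.6e-05). The size depended on the background treatment: in elpNSCs-late the log2 difference of 2.54 was 4.88 with the authors' values and 1.01 without background correction.

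Cldn11, a tight junction protein of myelin sheaths that other cell types also make, was brightest in Fibroblasts, like Pdgfra. It measured 10.29 and 10.39 in Fibroblasts, 6.02 and 5.82 in alpNSCs-early, 5.71 and 5.85 in alpNSCs-late, 5.46 and 5.63 in elpNSCs-late, 5.60 and 5.19 in elpNSCs-early, and 4.50 and 4.39 in Control-NSC. All 8 pNSC arrays were above background and above both Control-NSC arrays, neither of which was detected. Against Control-NSC it was at least 1.56-fold and 1.73-fold higher in the early and late limb groups (adjusted p = 0.00053 and 0.00025) and at least 2.2-fold and 2.04-fold higher in the early and late lung groups (adjusted p = 1.7e-05 and 5.2e-05). These 4 calls held under all 23 alternatives. Against Fibroblasts it was lower by 30.8-fold, 27.8-fold, 21.4-fold and 23.6-fold in the same order, and by at least 48.1-fold in Control-NSC.

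Cnp, the myelin enzyme CNPase, was detected on every array by both of its probes. The tested probe, the brighter, measured 8.61 and 8.18 in elpNSCs-early, 8.28 and 8.01 in elpNSCs-late, 7.87 and 8.28 in alpNSCs-early, 7.44 and 7.73 in Control-NSC, 7.35 and 7.62 in alpNSCs-late, and 6.17 and 6.05 in Fibroblasts. The other probe measured 6.35 and 6.74, 6.81 and 6.87, 6.29 and 6.52, 6.13 and 6.21, 6.14 and 6.25, and 5.46 and 5.44 in that order of groups. Fibroblasts were lowest by both probes, and by the tested probe the difference was 2.77-fold in Control-NSC, 4.86-fold and 4.1-fold in the early and late limb groups, and 3.9-fold and 2.59-fold in the early and late lung groups. The probes disagreed on the early and late limb groups: between these the tested probe was 0.24 lower in the late group and the other probe 0.30 higher, and neither passed the test. Against Control-NSC the tested probe was 1.75-fold higher in elpNSCs-early (adjusted p = 0.0072), a call that was lost without elpNSCs-early replicate 1 (difference 0.60) or Control-NSC replicate 1 (0.66).

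Mbp, the main structural protein of compact myelin, was at or near background on every array. Of its 3 probes, 2 were detected on no array and did not pass the filter. The third measured 4.92 and 4.83 in elpNSCs-late, 4.42 and 4.76 in elpNSCs-early, 4.64 and 4.56 in alpNSCs-early, 4.63 and 4.50 in Control-NSC, 4.40 and 4.66 in alpNSCs-late, and 4.48 and 4.34 in Fibroblasts. It was detected on both elpNSCs-late arrays and on elpNSCs-early replicate 2. In elpNSCs-late it was at least 1.18-fold higher than in Fibroblasts (adjusted p = 0.013), a call that was lost without background correction (difference 0.14), without elpNSCs-late replicate 1 (0.42) and without Fibroblasts replicate 2 (0.39). No difference from Control-NSC passed the test. Between the limb groups the late one was called higher only when the detected elpNSCs-early array, replicate 2, was left out (0.45).

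Counted over the 9 genes, all of them differed from Fibroblasts in elpNSCs-late, 7 were higher and 2 lower, where 36.1% of all genes were called higher and 27% lower (63% in all). In elpNSCs-early 5 were higher and 2 lower, beside 33.9% and 25.2% of all genes (59.1% in all). In alpNSCs-early the counts were also 5 and 2, beside 34.7% and 25.9% (60.6%). In alpNSCs-late and in Control-NSC they were 4 and 2, beside 35.6% and 26.5% (62.1%) and 34.7% and 27.2% (61.9%). Being called was thus common among all genes, and the lower calls were Pdgfra and Cldn11 in each group. The median log2 difference of the 9 genes was 1.13 and 2.34 in the early and late limb groups, 1.30 and 0.29 in the early and late lung groups and 0.15 in Control-NSC, where the median of all genes was 0.11 to 0.13. All these comparisons share the 2 fibroblast arrays. The higher calls in all neural stem cell groups were Olig1, Olig2, Bcas1 and Cnp.

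Against Control-NSC fewer of the 9 genes were called. In elpNSCs-early 3 were higher and 1 lower, where 13.5% of all genes were called higher and 12.5% lower (26.1% in all). In elpNSCs-late 4 were higher and 1 lower, beside 7.52% and 7.79% (15.3%), in alpNSCs-early 2 and 2, beside 9.02% and 9.14% (18.2%), and in alpNSCs-late 2 and 1, beside 5.88% and 6.53% (12.4%). Cldn11 was higher and Bcas1 lower in each of the 4, while Olig1, Olig2 and Mbp passed the test in none. In the mean of the 4 pNSC groups 4 of the 9 were called, beside 9.93% of all genes higher and 9.75% lower (19.7% in all): Gpr17, Ugt8a and Cldn11 were higher and Bcas1 was 1.96-fold lower (adjusted p = 2.3e-05). The median log2 difference of the 9 genes was 0.09 and 0.57 in the early and late limb groups and 0.03 and -0.03 in the early and late lung groups, beside 0.01 over all genes in each. These comparisons share the 2 Control-NSC arrays.

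**Figure D2:**
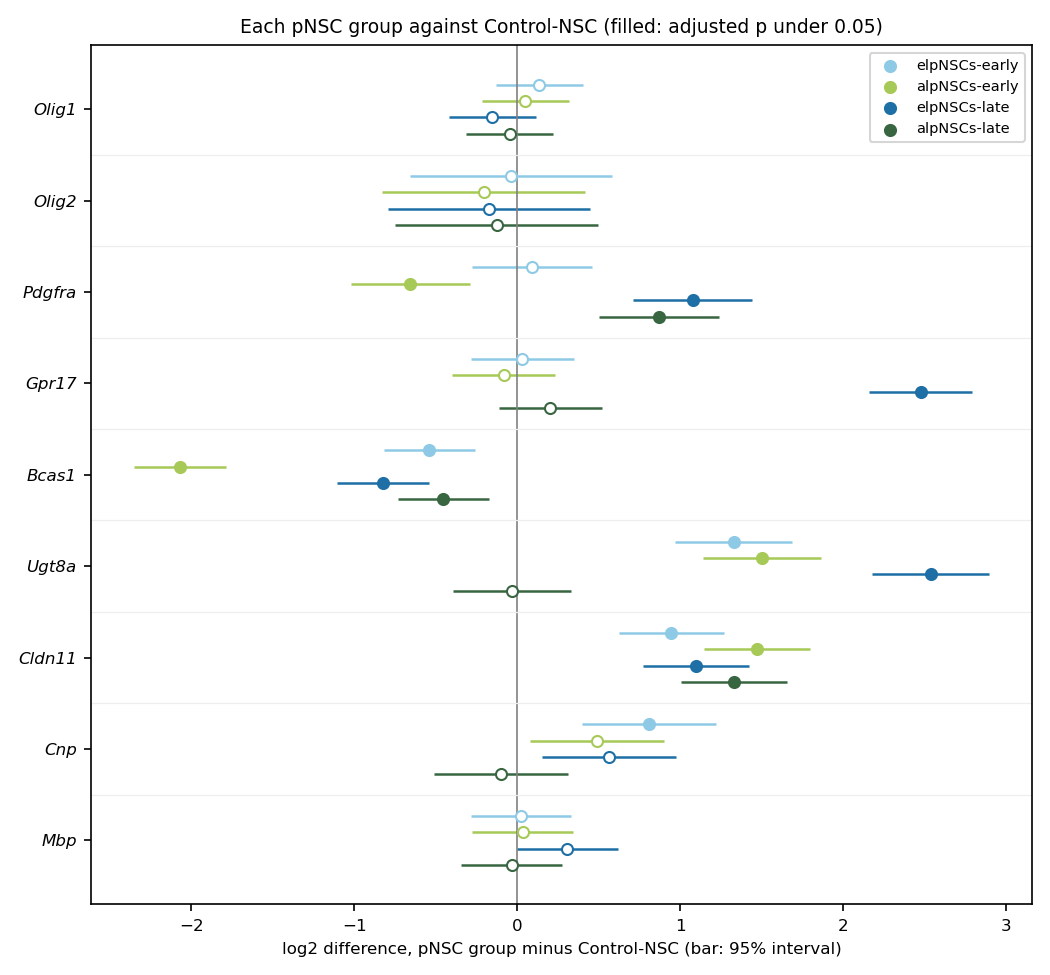
Log2 difference of each pNSC group from Control-NSC (horizontal axis) for the 9 genes, with 95% intervals from the limma model as bars and filled points for adjusted p under 0.05. Bcas1 lies to the left of 0 and Cldn11 to the right in all 4 groups, Gpr17 leaves 0 in elpNSCs-late alone at 2.48, and Olig1 and Olig2 stay around 0.

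Late and early groups from the same tissue were compared next, called here the limb line and the lung line. The labels do not say whether a late group continued the early culture, so rose and fell stand for a difference between groups. In the limb line 3 of the 9 genes rose and none fell, beside 11.7% of all genes called higher and 12.1% lower (23.8% in all). Pdgfra rose 1.98-fold (log2 difference 0.98, SE 0.17, adjusted p = 0.0013), Gpr17 at least 4.54-fold (adjusted p = 4.2e-07) and Ugt8a 2.31-fold (log2 difference 1.21, SE 0.17, adjusted p = 0.00027). In the lung line 2 rose and 1 fell, beside 2.11% higher and 2.72% lower of all genes (4.83%). Pdgfra rose 2.88-fold (log2 difference 1.53, SE 0.17, adjusted p = 0.00015) and Bcas1 3.07-fold (1.62, SE 0.13, adjusted p = 9.5e-06), whereas Ugt8a fell at least 2.1-fold to background (adjusted p = 0.00012). The size of these changes depended on how background was treated: over 23 alternatives the Gpr17 difference in the limb line ran from 0.97 to 4.26 and the Ugt8a difference in the lung line from -3.71 to -0.53, without a change of direction or call.

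Ugt8a, Gpr17 and Bcas1 changed differently in the 2 lines, tested as the late minus early difference in the lung line minus that in the limb line. Ugt8a rose in the limb line and fell in the lung line, and the gap between them was -2.74 on the log2 scale (adjusted p = 2.7e-05). Gpr17 rose in the limb line and differed by 0.28 in the lung line, a gap of -2.16 (adjusted p = 7.3e-05). Bcas1 was 0.28 lower in the late limb group, not past the test (adjusted p = 0.14), and rose in the lung line, a gap of 1.90 (adjusted p = 7.6e-05). Over all genes 5.66% passed this test, 3.18% with a higher and 2.47% with a lower value in the lung line. For Pdgfra, which rose in both lines, the gap was 0.54 with an interval from 0.02 to 1.06 (adjusted p = 0.24), and it passed the threshold without elpNSCs-late replicate 2 (0.84). Olig1, Olig2, Cldn11, Cnp and Mbp passed neither the test within a line nor the test between lines, with intervals for the gap of -0.19 to 0.57, -0.66 to 1.09, -0.75 to 0.17, -0.93 to 0.23 and -0.79 to 0.08.

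**Figure D3:**
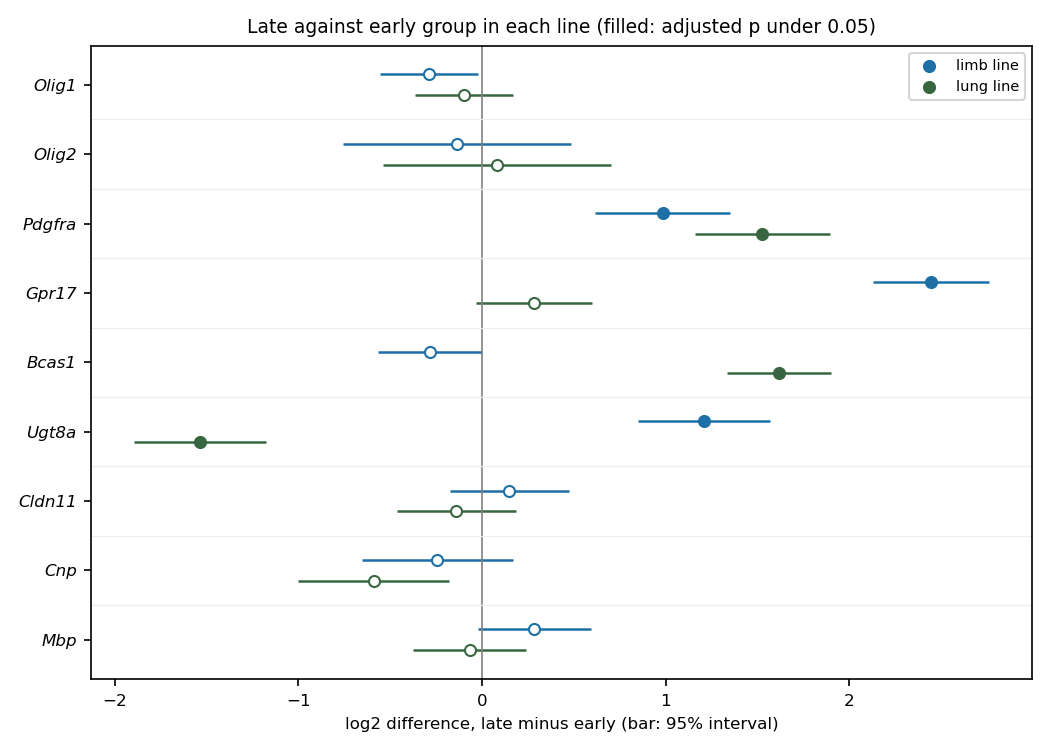
Log2 difference between the late and the early group (horizontal axis) in the limb line and in the lung line for the 9 genes, with 95% intervals from the limma model as bars and filled points for adjusted p under 0.05. Pdgfra rises in both lines, Ugt8a goes to 1.21 in the limb line and -1.53 in the lung line, Gpr17 leaves 0 in the limb line and Bcas1 in the lung line.

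Between lines at the same label, 3 of the 9 genes differed in the early groups (1 higher and 2 lower in the lung line), where 5.84% of all genes were called higher and 6.65% lower (12.5% in all). In the early groups Bcas1 was 2.89-fold lower in the lung line (adjusted p = 5e-06), Pdgfra 1.68-fold lower (adjusted p = 0.011) and Cldn11 1.44-fold higher (adjusted p = 0.038). Only the Bcas1 call held throughout. The Pdgfra call was lost with offset 50, without background correction, and without elpNSCs-early replicate 1 (-0.70) or alpNSCs-early replicate 1 (-0.62), and the Cldn11 call was lost in 15 of 23 alternatives, in which the difference ran from 0.20 to 0.79. These 15 included leaving out elpNSCs-early replicate 2 and either array of alpNSCs-early, alpNSCs-late, Control-NSC or Fibroblasts.

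In the late groups 3 of the 9 were lower and none was higher in the lung line, beside 5.61% and 5.29% of all genes (10.9% in all). Ugt8a was at least 4.3-fold lower in the lung line (adjusted p = 3.8e-07), Gpr17 4.84-fold lower with 1 of 2 lung arrays above background (adjusted p = 3.6e-07) and Cnp 1.59-fold lower (adjusted p = 0.042). The Cnp call was lost in 12 of 23 alternatives, with differences from -0.80 to -0.48, among them leaving out either array of elpNSCs-late, alpNSCs-late, Control-NSC or Fibroblasts. When all 14006 kept probes with a symbol were tested, the second Cnp probe passed (0.65 lower) and the first did not (0.67 lower).

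Other genes of the lineage were taken from lists of progenitor genes and of maturing and myelin genes. Of 14 other progenitor genes listed, 10 were analysed on the array and 6 were tested, and Sox6 and Tnr were detected on no array. Against Fibroblasts 6 of the 6 were higher in elpNSCs-early and elpNSCs-late, 4 in alpNSCs-early and Control-NSC and 3 in alpNSCs-late, and none was lower, beside the 33.9 to 36.1% of all genes called higher in these comparisons. Nkx2-2, a homeodomain factor of the lineage, measured 8.65 and 8.73 in elpNSCs-early, 8.78 and 8.69 in elpNSCs-late and 8.13 and 8.51 in Control-NSC, but 5.96 and 6.06 in alpNSCs-early, and was at background in alpNSCs-late and Fibroblasts. The lung groups thus lay below all limb and control arrays. They did so by a second kept probe too, but by that probe alpNSCs-early was also at background (4.50 and 4.33). Nkx2-2 was at least 16-fold lower in alpNSCs-late than in elpNSCs-late (adjusted p = 6.5e-10) and 6.4-fold lower in alpNSCs-early than in elpNSCs-early (adjusted p = 4.4e-08).

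Nkx6-1, a ventral neural tube factor known to act upstream of Olig2, was detected only in the limb groups, at 6.45 and 6.55 in elpNSCs-early and 6.43 and 6.00 in elpNSCs-late. It was at least 3.35-fold and 2.75-fold higher there than in Control-NSC (adjusted p = 1.1e-06 and 4.1e-06). Cspg4, the NG2 proteoglycan of progenitors and pericytes, measured 6.64 and 6.33 in elpNSCs-early and 6.61 and 6.47 in elpNSCs-late, above 5.45 to 5.75 on all other neural stem cell arrays. Cacng4 rose 2.36-fold from alpNSCs-early to alpNSCs-late (adjusted p = 9.7e-05). Between late and early, 0 of the 6 progenitor genes were called in the limb line and 2 in the lung line (1 higher, 1 lower), beside 23.8% and 4.83% of all genes called. Between lines 4 of 6 were lower and none higher in the lung line in the early groups, and 3 were lower and 1 higher in the late groups, beside 6.65% and 5.61% of all genes lower and 5.84% and 5.29% higher.

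Of 23 other maturing and myelin genes listed, 19 were analysed on the array, 9 were tested and 7 were detected on no array. The 7 were Enpp6, Zfp488, Mog, Mobp, Mal, Ermn and Fa2h, most of them structural proteins, enzymes or regulators of myelin. Mag, Aspa and Gal3st1 were each detected on 1 array, which was a fibroblast array for Mag and Gal3st1 and an alpNSCs-late array for Aspa. Of the genes tested, Tspan2 and Apod were detected on both fibroblast arrays and on no other array. Opalin, a membrane protein of oligodendrocytes, measured 5.80 and 5.26 in elpNSCs-early and 5.05 and 4.77 in elpNSCs-late, and was not above background in alpNSCs-late, Control-NSC or Fibroblasts. It was at least 1.71-fold higher in elpNSCs-early than in Control-NSC (adjusted p = 0.0025).

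Car2, a carbonic anhydrase that oligodendrocytes are known for, measured 8.44 and 8.30 in Control-NSC and between 7.03 and 7.86 on the 8 pNSC arrays, with no overlap. It was lower than Control-NSC in each pNSC group, from 1.59-fold in alpNSCs-late (adjusted p = 0.048) to 2.41-fold in alpNSCs-early (adjusted p = 0.00062). Trf, the iron carrier transferrin, fell from early to late in both lines, by 2-fold in the limb line (adjusted p = 9.9e-05) and 2.41-fold in the lung line (adjusted p = 3.3e-05). Of the 9 genes tested, 3 fell and none rose in the limb line and 1 fell and none rose in the lung line between early and late, beside 12.1% and 2.72% of all genes called lower. Their median log2 difference was -0.22 in the limb line and -0.00 in the lung line, beside 0.00 over all genes in both.

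**Figure D4:**
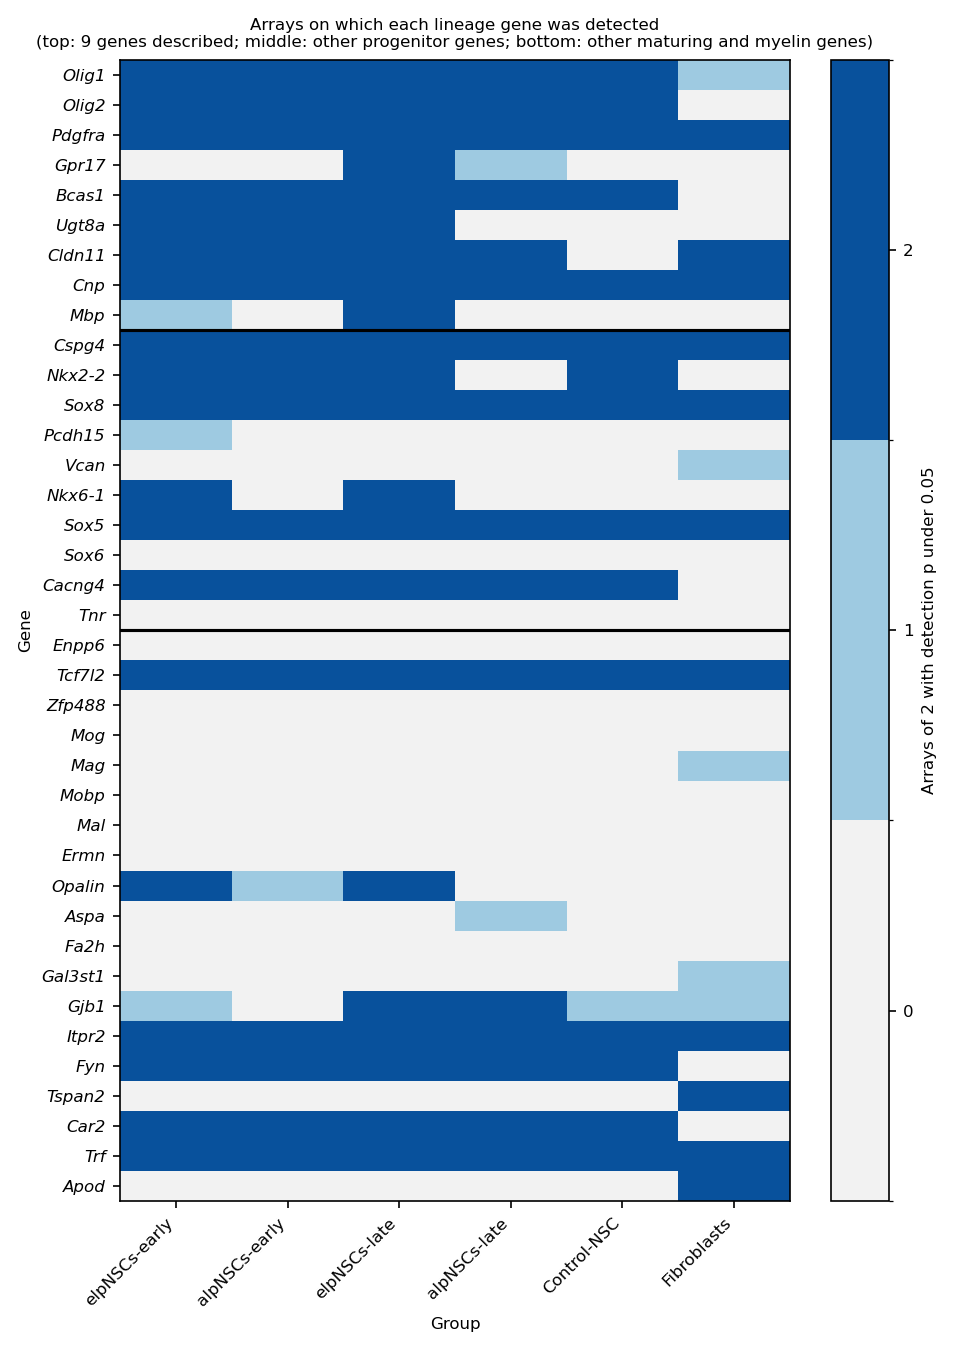
Number of arrays out of 2 (colour) on which each gene (rows) was detected in each group (columns), for the 9 genes, 10 other progenitor genes and 19 other maturing or myelin genes. Genes detected on no array were 0 of the 9, 2 of the 10 and 7 of the 19. In the lowest block Tcf7l2, Itpr2 and Trf were detected on all 12 arrays.

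Markers of other cell types were set beside these values. The 8 fibroblast markers tested were all below Fibroblasts in every neural stem cell group: their summed log2 level was 82.69 to 82.98 in Fibroblasts, 41.61 to 41.95 in Control-NSC and 34.65 to 38.27 in the pNSC groups, with the 5 defining markers named above at background. It was 35.57 to 35.70 in elpNSCs-late and 38.23 to 38.27 in elpNSCs-early, and 34.65 to 35.00 in alpNSCs-late and 34.76 to 34.96 in alpNSCs-early, so that it overlapped between the lung groups. The fall between the limb groups came from Thy1, which went to background (4.21 and 4.25), whereas Fbln2 measured 5.41 and 5.01 in the early and 5.48 and 5.49 in the late group. Of 6 Schwann cell and neural crest markers on the array 5 were tested, and Foxd3 was detected on no array. Their summed level was 40.85 to 41.01 in elpNSCs-late, 41.18 to 41.21 in elpNSCs-early and 38.73 to 40.16 in the lung groups. It was 35.98 to 36.37 in Control-NSC and 36.34 to 36.79 in Fibroblasts. Gap43 measured 10.89 to 11.38 in the limb groups, 8.81 to 9.78 in the lung groups and 7.78 and 7.95 in Control-NSC. Egr2 measured 6.87 to 8.53 on the pNSC arrays against 6.74 and 6.65 in Control-NSC. Pmp22 (7.69 to 8.58 on the pNSC arrays), Ncam1 (8.70 to 9.65) and Ngfr (4.42 to 5.11) overlapped Control-NSC.

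The sum of the neuron markers was highest in the late limb group, mainly through the tested probes of Rbfox3 and Dcx, which their other probes did not share. The summed log2 level of the 6 tested was 35.75 to 37.08 in elpNSCs-late, 34.82 to 35.65 in elpNSCs-early, 34.31 to 35.14 in the lung groups and 34.51 to 34.64 in Control-NSC. Rbfox3, the neuronal nuclear antigen NeuN, measured 5.94 and 6.24 in elpNSCs-late and 5.07 and 4.98 in elpNSCs-early and was at background in all other groups. Its other probe was detected on no array. Dcx measured 5.04 and 5.25 in elpNSCs-late and 4.28 to 4.86 on the other neural stem cell arrays. A second kept Dcx probe measured 4.63 and 4.90 in elpNSCs-late and 4.90 and 4.54 in elpNSCs-early. The third Dcx probe was detected on no array. The other 4 genes did not share the order of the sum. Stmn2 was above background only in Fibroblasts (7.15 and 7.12), and Elavl3 was highest in alpNSCs-late (5.24 and 5.30). Map2 measured 11.42 and 11.66 in elpNSCs-late, below 11.99 and 12.09 in Control-NSC. Tubb3 measured 4.54 and 4.69 in elpNSCs-late, within the 4.47 to 5.23 of the other neural stem cell arrays. Astrocyte markers, 6 tested, summed to 45.21 to 46.17 in elpNSCs-late and 48.67 to 49.35 in elpNSCs-early. The sum was 46.37 to 47.37 in alpNSCs-early, 43.60 to 43.97 in alpNSCs-late and 44.43 to 44.63 in Control-NSC. Aldoc ran against the sum in the limb groups, at 11.87 and 12.16 in elpNSCs-late and 11.05 and 11.35 in elpNSCs-early. The other genes tested were lower in elpNSCs-late than in elpNSCs-early. Gja1 was brightest in Fibroblasts (12.93 and 12.88), and Gfap was detected on 1 array and not tested. The part of any of these lists in the differences of the lineage genes was not tested.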

How the data were processed

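RNA from 12 cultures was labelled and hybridized to Illumina mouse bead arrays. The authors deposited raw linear intensities per probe, mapped to genes with BeadStudio 3.2, with detection p-values, and a second table of log2 values that they had made with RMA-type background correction and lumi. The intensities were background-corrected, quantile-normalized and taken to log2 by neqc of limma 3.58.1 (R 4.3.3), whose normexp step used an offset of 16 and drew the negative control signal from the detection p-values. A probe was kept with detection p under 0.05 on at least 2 arrays (14869 of 25697, 10 of the 12 described here), and each gene took its brightest kept probe. Gene symbols came from the platform annotation, and 23962 of 23978 named probes matched RefSeq. The files give no genome build, so probes have no coordinates here.

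One model on 12 arrays gave 15 comparisons, with 6 residual and 5.82 prior degrees of freedom. A group with no detected array gives only a bound: the fold was then taken against the higher of each dim value and that array's lowest detected signal, and is written as at least N-fold. The number of arrays, 2 a group, limits the precision. Replicate arrays shared 0.292 to 0.638% identical raw intensities, so none was a repeat deposit. The members and gene lists were chosen with earlier results of these data known. All 9 members are named. From other lists the rule allowed up to 5 genes with the smallest adjusted p in a comparison, and defining genes at background. For 4 members it took the 3 genes most like each. Genes named for their level alone, among them Rbfox3, were chosen after their values were seen. Sequences were read with Python 3.11.15. Alternatives were the authors' values, other background, scaling, filter and probe rules, an intensity trend, a replicate block, the arrays compared alone, and leaving out each array.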

Additional observations from a re-analysis of the deposited data

Results flagged for a closer look

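Some genes changed from early to late by different amounts in the limb and lung lines, by the test of the difference itself (lung minus limb, on the log2 scale). Among the 9 genes these were Ugt8a at -2.74, Gpr17 at -2.16 and Bcas1 at 1.90. For Ugt8a and Gpr17 groups at background enter the difference, so its size is uncertain: over the 23 alternatives it ran from -5.29 to -1.10 for Ugt8a and from -3.19 to -0.86 for Gpr17.

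Among the other lineage genes, Nkx2-2 differed by -1.60 (adjusted p = 0.00036, with alpNSCs-late at background), Cacng4 by 0.91 (adjusted p = 0.013), Sox5 by 0.64 (adjusted p = 0.042) and Tcf7l2 by 0.58 (adjusted p = 0.049). A second kept Nkx2-2 probe was at background in both lung groups, so it could show no fall in the lung line. Over all genes 5.66% passed this test. With 2 arrays a group, no array could be tested as an outlier.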

How the results depend on the processing

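Of 135 tests of a member in a comparison, 70 were called, 62 of these in all 23 alternatives, and no call reversed. A call was lost in some alternative for 8 tests, and 13 of the 65 others were called in some alternative. The count of called members was within 1.5 times in the 11 alternatives that keep every array, but for offset 50 and no background correction, each of which left 1 of the 3 called between the early groups (Bcas1). Leaving out each array in turn gave, against Fibroblasts, 7 to 7 in elpNSCs-early and alpNSCs-early, 8 to 9 in elpNSCs-late, 6 to 7 in alpNSCs-late and 6 to 6 in Control-NSC. Against Control-NSC it gave 3 to 5 in elpNSCs-early, 3 to 4 in alpNSCs-early, 5 to 6 in elpNSCs-late, 2 to 3 in alpNSCs-late and 4 to 5 in the pNSC mean. Late against early it gave 3 to 4 in the limb line, 3 to 3 in the lung line and 3 to 4 for the gap between lines, and between lines 1 to 3 early (1 without alpNSCs-early replicate 1) and 2 to 3 late.

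The size of a difference depended on the background treatment wherever a group was dim: the Gpr17 difference of 2.48 between elpNSCs-late and Control-NSC was 4.45 with the authors' values and 0.99 without background correction. Median scaling moved the median of all genes between the early and late limb groups from 0.00 to 0.15, and no member called there lost its call. With the authors' values Ugt8a was called lower in alpNSCs-late (-1.09) and Control-NSC (-0.93) than in Fibroblasts. With offset 50 or no background correction Olig1 was called lower in the late than in the early limb group (-0.29) and Bcas1 higher in alpNSCs-late than in elpNSCs-late (0.36 to 0.37). Cnp was called higher in elpNSCs-late than in Control-NSC in 5 alternatives (0.57 to 0.72), 2 of them without either elpNSCs-early array. In the pNSC mean against Control-NSC, Cnp was called when probes were averaged (0.38) and without elpNSCs-early replicate 2 or alpNSCs-early replicate 1 (0.49), and Pdgfra without elpNSCs-late replicate 1 (0.42).

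With the replicate number as a block, the count of all genes called rose by 1.02 to 1.19 times, in the limb line from 2413 to 2621, and of the members only Gpr17 changed its call (alpNSCs-late against Fibroblasts, 0.29). Deviations of same-numbered arrays correlated at -0.15 to 0.24 over 15 pairs of groups, 10 of them over 0.1, and all 12 arrays correlated best with an array of their own number. Since 5 correlations were not over 0.1, the numbers were not taken as pairs.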

Other observations

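Genes known to hold back oligodendrocyte differentiation were listed as well. Of 8 tested, 4 fell and none rose in the limb line, beside 12.1% of all genes called lower (23.8% in either direction). In the lung line 3 fell and none rose, beside 2.72% of all genes called lower (4.83% in either direction). Hes5, a Notch target, measured 8.78 and 8.91 in elpNSCs-early, 4.79 and 4.64 in elpNSCs-late, 10.91 and 10.76 in alpNSCs-early, 6.75 and 6.63 in alpNSCs-late and 6.55 and 6.53 in Control-NSC. It fell 17.5-fold in the limb line, to a level detected on 1 of 2 arrays (adjusted p = 1.6e-09), and 17.7-fold in the lung line (adjusted p = 1e-09), with no array of a late group overlapping its early group. The size of the limb fall depended on the background treatment. Without background correction Hes5 went from 9.03 and 9.14 to 6.79 and 6.75, and with the authors' values from 8.89 and 9.03 to 3.69 and 3.31. A second kept Hes5 probe fell from 7.98 and 8.31 to background in elpNSCs-late (4.51 and 4.37). Hes1, another Notch target, fell 2.88-fold (adjusted p = 9.4e-06) and 3.83-fold (adjusted p = 1.9e-06). Id4 fell in both lines as well, to background in elpNSCs-late. Id2 passed the test in neither line and was higher than Control-NSC in each pNSC group, by 2.28-fold to 4.37-fold.

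Over the 10 neural stem cell arrays, the genes whose levels ran most like Olig1 were Ulk1 (r = 0.96), Pros1 (0.96) and Trp53inp2 (0.94). Those most like Bcas1 were Emp2 (0.95), Rhobtb2 (0.91) and Plekha8 (0.91), those most like Pdgfra were Nt5e (0.93), Tnp1 (0.91) and Eps15 (0.91), and those most like Cldn11 were Pop4 (0.97), Prkg2 (0.97) and Glo1 (0.96). These are the highest values over all genes tested, from 5 groups of 2 arrays, and are given as a description. Within the 9 genes and the same arrays, Ugt8a ran most like Cnp (r = 0.74) and Gpr17 most like Mbp (0.70). Olig1 ran opposite to Gpr17 (-0.72), and r was -0.02 between Olig1 and Olig2. Gpr17 and Mbp were each detected on only 3 arrays, and the group means of Olig1 spanned only 0.29. These values too are a description.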
